A study of Mus musculus with 2 samples.

Results

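ER-Sox9flox/flox prostaspheres treated with vehicle were compared with ER-Sox9flox/flox prostaspheres treated with tamoxifen (TAM) on 1 dual-color Agilent whole mouse array, which is 1 of the 2 arrays of the study. Vehicle RNA (culture No.6) carried the dye Cy5 and TAM RNA (culture No.9) carried Cy3. Of 41174 probes, 24002 (58.3%) were marked by the scanner software as well above background in at least 1 channel, and these were kept. They carried 15995 gene names, of which 14011 matched a current RefSeq symbol. Both cultures were labelled as C57/Bl6J in background and Sox9 null in genotype, so only the treatment label tells them apart. The cells were homozygous for a Cre recombinase fused to the estrogen receptor (ERCre+/+), from the Rosa26ERCre line per the study's methods, and for a floxed Sox9 gene (Sox9flox/flox). Per the labels they were epithelial cells of the urogenital sinus (UGS), the embryonic tissue from which the prostate buds, taken at 16 days post conception, whereas the methods of the study start the sphere assay from adult prostate. All spheres grew for 6 days in Matrigel with dihydrotestosterone, then for 6 days with TAM at 5 µM or with vehicle. The number of embryos behind each culture and the relation between No.6 and No.9 were not given in the sources used here. The other array, called the genotype array, set wild-type spheres given TAM (No.2, Cy5) against ER-Sox9flox/flox spheres given TAM (No.7, Cy3).

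Sox9 is a transcription factor of the Sry-related family that directs cartilage and testis formation and marks progenitor cells in several epithelia. TAM releases the Cre from the cytoplasm so that it can cut out the floxed part of Sox9, but TAM is also a ligand of estrogen receptors and induces drug-metabolizing enzymes. On the treatment array TAM and Sox9 deletion came together, so their shares cannot be told apart there, while on the genotype array both RNAs had met TAM.

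Unless another pair of RNAs is named, a log2 ratio below is vehicle over TAM, so a positive value is higher in vehicle-treated cells. A ratio of the genotype array is wild type over floxed cells, both with TAM. Brightness is the level of a probe in 1 RNA on a common scale over the 4 RNAs of both arrays, in array units that hold a constant of 50 added before the logarithm, which understates changes of dim probes. Brightness orders the probes of a gene only to pick the one that stands for it, a sum over a list is weighted toward its bright probes, and otherwise brightness was compared between RNAs of the same probe. With 1 array there is no replicate culture and no residual degree of freedom, so no test was possible and no p-value is given. A 2-fold difference, a log2 ratio of 1, serves as a line for counting. Vehicle RNA and wild-type RNA were both in Cy5 and the number of arrays with swapped dyes was 0. For a probe with the same sign on both arrays, a dye effect and a difference between the RNAs therefore cannot be told apart.

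Most genes differed little between vehicle and TAM. The median log2 ratio over the kept probes was 0.01, the quartiles were -0.13 and 0.16, and 94.4% of probes lay within 1.5-fold. At least 2-fold higher with vehicle were 311 probes, 1.30% of those kept, and at least 2-fold lower were 74, or 0.308%. A gene was read from its brightest kept probe, which gave 263 genes at least 2-fold higher (1.64%) and 57 lower (0.356%). The excess of higher genes moved with the scaling: the share of 2-fold probes that were higher was 80.8% here, 65.2% with plain background subtraction, 58.0% from the scanner software's own ratio and 99.1% when each array was instead centred on its median, which put the median over the kept probes at 0.36. At least 3-fold higher were 86 probes and lower 11, and at least 4-fold 37 and 5. The 2-fold line itself is soft, since 33 genes lay within 0.05 log2 inside it and 38 within 0.05 outside. Over 170 kept probes that were spotted more than once, replicate spots had a median SD of 0.0431 in log2 ratio, which covers the array and not the cultures. The number of saturated spots was 0. The 18S ribosomal RNA probe Rn18s was far brighter in the Cy5 RNA of both arrays, with 154553 with vehicle, 55003 with TAM, 165288 in wild type and 51430 in its TAM partner (1.49 and 1.68), although labeling was primed by oligo-dT, and its part in the other differences was not tested.

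**Figure D1:**
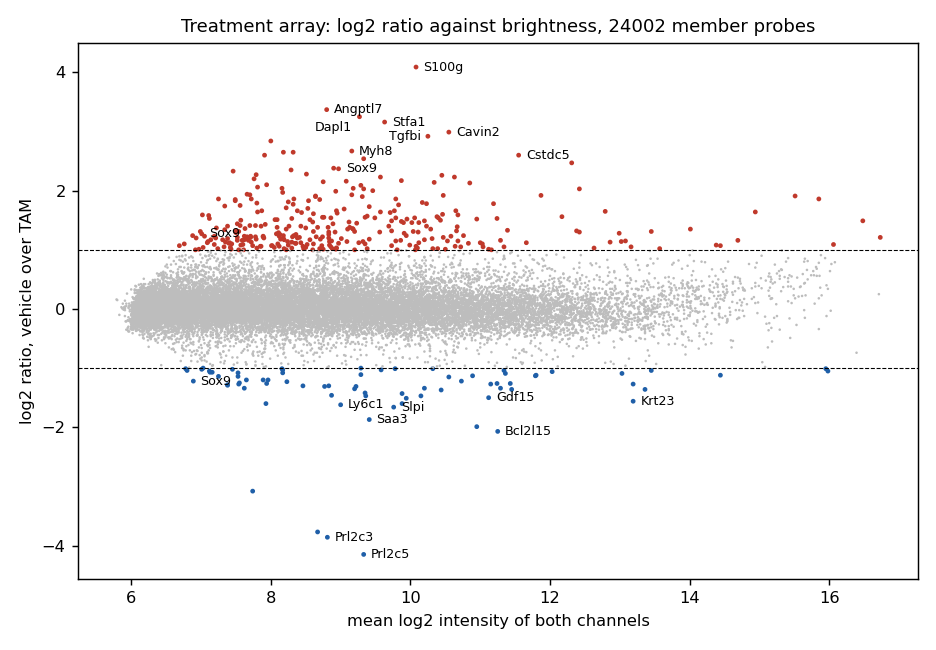
Log2 ratio of vehicle over TAM (y axis) against the mean log2 intensity of both channels (x axis) for the 24002 kept probes, with dashed lines at 2-fold and colors for the 311 probes above and the 74 below. Most of the cloud hugs 0, S100g stands highest at 4.09 and the proliferins Prl2c5 and Prl2c3 stand lowest at -4.15 and -3.86.

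Sox9 itself, the targeted gene, was read by 3 probes that did not run one way. The first 30 bases of each probe are given with its place in the gene, after which the probes are named here. Why the probes differ was not tested. All lie on the plus strand of chromosome 11 in mm9, at chr11:112647008-112647067, chr11:112644310-112645162 (a 60-base probe whose 2 ends lie 853 bases apart on the genome) and chr11:112648809-112648868.
Sox9, middle probe: ttccaggagagagactttaagactttgtct
Sox9, upstream probe: actctgggcaagctctggaggctgctgaac
Sox9, downstream probe: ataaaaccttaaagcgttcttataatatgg
The middle probe, the brightest, read 1198 with vehicle and 232 with TAM, a log2 ratio of 2.37, beside 1634 in wild type and 253 in the TAM cells of the genotype array. The upstream probe read 244 and 101, a log2 ratio of 1.27, beside 297 and 131. Both probes thus put the RNAs from cells with intact Sox9 on top. The downstream probe read 96.3 with vehicle and 225 with TAM, a log2 ratio of -1.22, beside 106 and 211, and its signal in wild type was not marked as well above background. Its 6 spots had an SD of 0.04. The sources do not say which part of Sox9 the loxP sites flank, so which of the probes lie in the deleted part is not known, and only the upstream and middle probes run with the labels.

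Genes far lower with vehicle were led by the proliferins, prolactin-related hormones that are best known from placenta and from growing cultured cells. Prl2c5 read 159 with vehicle and 2818 with TAM, 17.7-fold higher with TAM. Prl2c3 read 125 and 1819, or 14.6-fold. Both were also low in wild type, at 216 and 163, and high in the other TAM culture, at 3413 and 2078, so the pattern followed TAM-treated floxed cells on both arrays. Their probes are shown since they share most of their letters and the RNAs could bind either probe. Capitals mark the 4 runs of at least 8 bases that stand in both probes in the same order, 52 of 60 bases, the longest of 18. The probes lie in mm9 at chr13:12883352-12884285 on the minus strand and at chr13:13282998-13283933 on the plus strand with their 60 bases spread over 934 and 936 bases of genome.
Prl2c3: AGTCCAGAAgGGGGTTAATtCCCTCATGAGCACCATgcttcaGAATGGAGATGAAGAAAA
Prl2c5: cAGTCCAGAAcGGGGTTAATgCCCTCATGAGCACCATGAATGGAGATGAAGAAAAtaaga
With so much shared sequence, the levels of the 2 genes cannot be told apart by these probes. A second probe of each gene read -3.77 for Prl2c3 and -3.08 for Prl2c5.

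The other genes among the 12 lowest have varied roles. Bcl2l15, a relative of the Bcl2 survival proteins, read 1184 and 4967, a log2 ratio of -2.07. Slpi, a secreted inhibitor of leukocyte elastase, read 500 and 1577 (-1.66), and Saa3, an acute-phase serum amyloid, read 369 and 1347 (-1.87). All of these were also at least 2-fold lower in wild type than in its TAM partner. Ly6c1, a surface antigen, had a ratio of -1.62, Gdf15, a stress-induced hormone of the TGF-beta family, -1.50, Upk3bl, an uroplakin-like protein, -1.51, and Cyp2b13, a drug-metabolizing cytochrome, -1.47. Serpinb2, an inhibitor of urokinase, and Crct1, a gene of the epidermal differentiation complex, were in this set too. They were the ones within 1.5-fold on the genotype array, at -0.30 and -0.55. Krt23, a keratin, read 5379 and 15913 (-1.56).

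The 12 highest genes split into epithelial and mesenchymal or muscle products. S100g, a small calcium-binding protein of absorptive epithelia, read 4556 with vehicle and 267 with TAM, 17.1-fold, beside 1564 and 271 on the genotype array. Dapl1, expressed in stratifying epithelium, read 1995 and 209 (3.25), and Tgfbi, a matrix protein induced by TGF-beta, read 3387 and 448 (2.92). Cstdc5, a gene of the stefin cluster of cysteine protease inhibitors like Stfa1 (3.16), read 7369 and 1219 (2.60). For these 5 genes wild type also stood at least 2-fold above its TAM partner, with log2 ratios of 1.70 to 2.53. The others did not share this. Angptl7, a secreted angiopoietin-like factor, Cavin2, a coat protein of caveolae, and Vegfd, a growth factor of lymphatic vessels, were near 0 on the genotype array. The muscle genes Myh8, Myh1 and Tnnc2 were below 0 there (-1.50, -0.96 and -1.83), while Myh3 was near 0 (-0.17). For the Myh genes the wild-type signal was not well above background. Among genes with a RefSeq symbol, a further 3 past 2-fold were well above background with vehicle and not with TAM, so their folds are lower bounds. Bbox1, the last enzyme of carnitine synthesis, read 344 against 94.9, at least 3.63-fold, Krt1, a keratin of upper epidermis, read 275 against 91.4, at least 3.01-fold, and Lrrc17 read 190 against 90.7, at least 2.10-fold. The number of 2-fold genes seen with TAM alone was 0.

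Where several probes read 1 gene, the further probes of 2-fold genes mostly shared the sign, while fewer of them passed 2-fold than did not. Of 5808 genes with 2 or more kept probes, 64.2% had all probes on 1 side of 0. Of the 263 higher genes, 92 had further probes, and 111 of their 112 further probes (99.1%) were above 0, 40 of them past 2-fold. Of the 57 lower genes, 16 had further probes, and 23 of 25 (92.0%) were below 0, 10 past 2-fold. Over all genes 69.4% of 8007 further probes shared the sign of the brightest probe, and the median SD between probes of a gene was 0.101. Since these genes were picked by the brightest probe on the same array, the shares are a description. Probes of a gene share both RNAs, so their agreement says nothing on the spread between cultures. The remaining 171 higher and 41 lower genes rest on a single probe.

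In 39 genes every probe passed 2-fold. Aqp4, a water channel, did so with 3 probes, the highest at 2.15, while on the genotype array they ran from -0.24 to -0.10. Mia, a secreted cartilage protein and a known Sox9 target, did so with 3 probes from 1.94 to 2.10 and was as high on the genotype array, at 1.74 to 1.97. Col11a1, a fibrillar collagen chain of cartilage, read 2.09 and 2.23 here and -0.69 and -0.33 there. Among the 39 were also the muscle genes Myh3 (2.33 and 2.60), Myl4 (1.85 and 1.91) and Mybph (1.71 and 1.81), and the mitotic genes Mki67 (1.16 and 1.38) and Kif20a (1.38 and 1.46). The positions of the Myh3 probes overlap, as do those of Myl4, of Kif20a and of 2 of the 3 Mia probes. These probes read in part the same stretch, so they are not separate readings of the gene. The Myh3 probe at 2.33 was not well above background with TAM, so its ratio is a lower bound. Further probes crossed 0 in 3 of the 2-fold genes. Apart from Sox9, these were Mid1, an E3 ubiquitin ligase on microtubules, whose probes read -1.01 and 0.28, and an immunoglobulin heavy chain name whose 5 probes ran from -1.05 to 0.01.

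**Figure D2:**
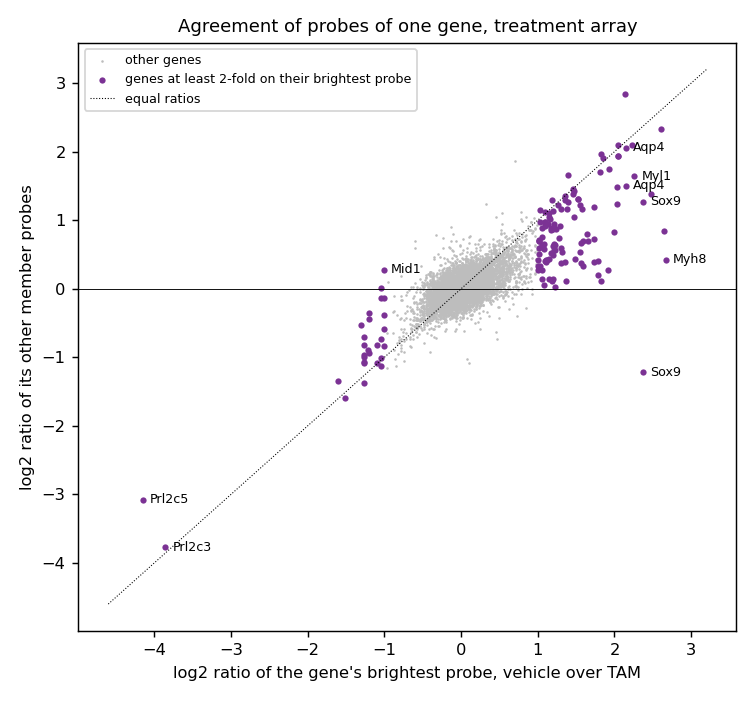
Log2 ratio of vehicle over TAM of each further kept probe of a gene (y axis) against that of the gene's brightest probe (x axis), with purple points for genes at least 2-fold on the brightest probe and a dotted line where both are equal. Of the 112 further probes on the right 111 lie above 0, the exception being the downstream Sox9 probe at -1.22, and on the left Mid1 lies above 0 at 0.28.

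The genotype array addresses which of these differences also separate wild-type from floxed cells when both receive TAM. Of the 262 higher genes with a value on that array, 57 were at least 2-fold and 42 were 1.5-fold to 2-fold the same way, 120 (45.8%) lay within 1.5-fold, and 43 were at least 1.5-fold the other way, 18 of them past 2-fold. Of the 57 lower genes, 24 and 12 ran the same way, 21 (36.8%) lay within 1.5-fold, and 0 ran the other way. As background, of 15196 genes measured on both arrays the genotype array had 88 (0.579%) at least 2-fold higher in wild type and 164 (1.08%) at least 2-fold lower. The TAM RNAs of the arrays came from different cultures of the same kind, No.9 and No.7, and are not a shared control. That a change passed 2-fold on one array and not on the other does not show that the arrays differ, since the difference could not be tested.

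**Figure D3:**
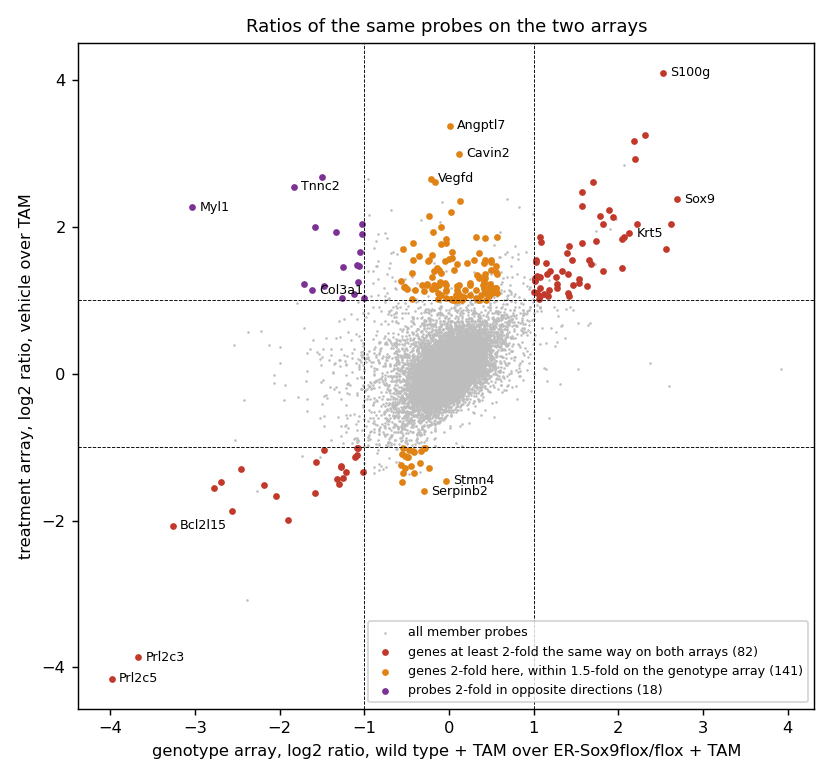
Log2 ratio of the same probes on the treatment array (y axis, vehicle over TAM) and on the genotype array (x axis, wild type with TAM over ER-Sox9flox/flox with TAM), with dashed lines at 2-fold on each axis and colors for the genes that are 2-fold here and within 1.5-fold there or 2-fold in opposite directions. The 18 opposite genes lie at the upper left, among them Myl1 at 2.26 and -3.03, whose wild-type signal is not well above background, and the opposite corner at the lower right holds 0 genes.

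Of the 120 higher genes that the genotype array lacked, 112 were well above background in both channels of the genotype array, so most had a measured level there. In all 120 the vehicle culture was brighter than wild type, by a median log2 difference of 1.01 and in 60 by at least 2-fold. The 2 TAM cultures differed by a median of -0.12 and by at most 0.52 in any of these genes. With TAM cultures this close, the choice of these genes fixes that vehicle lies above wild type, so the order is a description of the rule.

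The 12 largest of these genes have varied roles. Angptl7 read 1516 with vehicle, 147 with TAM, 167 in wild type and 166 in the other TAM culture. Vegfd read 797, 127, 122 and 141 in the same order. In both the other 3 RNAs were close together. Sfrp1, a secreted inhibitor of Wnt signaling, read 770, 151, 171 and 156. Ogn, a small proteoglycan of connective tissue, read 527, 115, 119 and 117. Col8a1, a short-chain collagen, read 7195, 1907, 1663 and 1892, while its dimmer second probe read 115, 94.5, 94.4 and 96.5 (0.28). These probes too had vehicle on top. Ptn, the heparin-binding growth factor pleiotrophin, had a log2 ratio of 1.85, Cavin2 of 2.99 and Myh3, the embryonic myosin heavy chain, of 2.60. Transport and metabolism made up the rest: Aqp4 read 956, 216, 199 and 236, Slc1a6, a glutamate transporter, read 1459, 364, 287 and 305, and Ugt2b34, a glucuronosyltransferase, read 668, 184, 258 and 207. Bbox1 was the least sharply separated, with 167 in wild type and 112 in its TAM partner. The latter signal was not well above background, so Bbox1 was at least 1.49-fold higher in wild type. Whether it stayed within 1.5-fold on the genotype array is therefore not known. The wild-type signal of Myh3 was not well above background either.

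The 21 lower genes that the genotype array lacked, all well above background in both of its channels, were selected the same way. On that array all 21 were also below 0, from -0.57 for Wnt7a to -0.04 for Stmn4. They thus ran the same way there with smaller sizes, some just inside the 1.5-fold limit. Vehicle was below wild type in 19 of 21 by brightness, by a median log2 difference of -0.55 over the 21 and by at least 2-fold in 2 genes. The TAM cultures differed by a median of 0.11, with 0 genes past 2-fold. Wild type often lay between vehicle and TAM. Serpinb2 read 157 with vehicle, 474 with TAM, 377 in wild type and 464 in its TAM partner. Msln, the surface protein mesothelin, read 6412, 16479, 10734 and 15636. Stmn4, a regulator of tubulin of the stathmin family, read 298, 821, 681 and 700. For these 3 genes vehicle was the lowest of the 4. The stress-induced transcription factors Atf3 (386, 982, 731 and 969) and Ddit3 (1285, 2816, 1882 and 2627) ran the same way. So did the epithelial cytokine Tslp (-1.29), the chemokine Cxcl16 (-1.22), the leukotriene-forming enzyme Ltc4s (-1.28), the laminin-binding integrin chain Itga3 (-1.26), the ligand Wnt7a (-1.25), the EGF-like ligand Epgn (-1.14) and Crct1 (-1.47).

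The 18 genes past 2-fold in opposite directions were all higher with vehicle here and lower in wild type there, and most were products of striated muscle or of connective tissue. In all 18 vehicle was the brightest and wild type the dimmest of the 4 RNAs. The median log2 difference between these RNAs was 2.46 and the lowest 1.76. With the TAM cultures close to each other, the order and much of this difference follow from how the genes were chosen. In all 18 the TAM culture of the genotype array was brighter than that of the treatment array, and the median log2 difference of treatment array minus genotype array was -0.40. Myl1, an alkali light chain of fast muscle myosin, read 3094 with vehicle, 647 with TAM, 120 in wild type and 978 in the other TAM culture. Acta1, skeletal muscle actin, read 2783, 737, 418 and 1050. Tnnc2, the calcium sensor of fast muscle, read 1619, 279, 127 and 450. The vehicle and wild-type RNAs were not hybridized against each other.

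The set also held the myosin heavy chain Myh8 (2.67 here and -1.50 there), the calcium pump Atp2a1 (2.03 and -1.03), the acetylcholine receptor chain Chrna1 (1.99 and -1.58), the sarcomere proteins Myom2 (1.90 and -1.03), Mylpf (1.66 and -1.05), Tnni1 (1.47 and -1.06) and Tcap (1.24 and -1.07), the oxygen store Mb (1.22 and -1.71) and the muscle enolase Eno3 (1.48 and -1.09). Col1a1, the main chain of type I collagen, read 8960, 4378, 2117 and 5073 over 10 spots with an SD of 0.02, a log2 ratio of 1.03. Col3a1 (1.13 and -1.62), Fbln2, a matrix protein (1.08 and -1.12), and Fndc1 (491, 240, 123 and 247) were the other connective tissue genes. Dio3, which inactivates thyroid hormone (1.45 and -1.25), and the protease inhibitor Serpina3n (1.19 and -1.48) complete the 18. Of the 18, 15 were well above background in all 4 RNAs. Myl1, Myh8 and Chrna1 were not in wild type and were there at least 8.15-fold, 2.82-fold and 2.99-fold lower than in the TAM partner. The 9 further probes that read 8 of these genes were all above 0 here and below 0 there. None of them passed 2-fold both ways. Some were close to 0 there, as for Myh8 (0.42 and -0.05), Fndc1 (0.33 and -0.11) and Chrna1 (0.83 and -0.13). Others were larger, as for Myl1 (1.64 and -0.69) and Tnni1 (1.43 and -0.71).

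**Figure D4:**
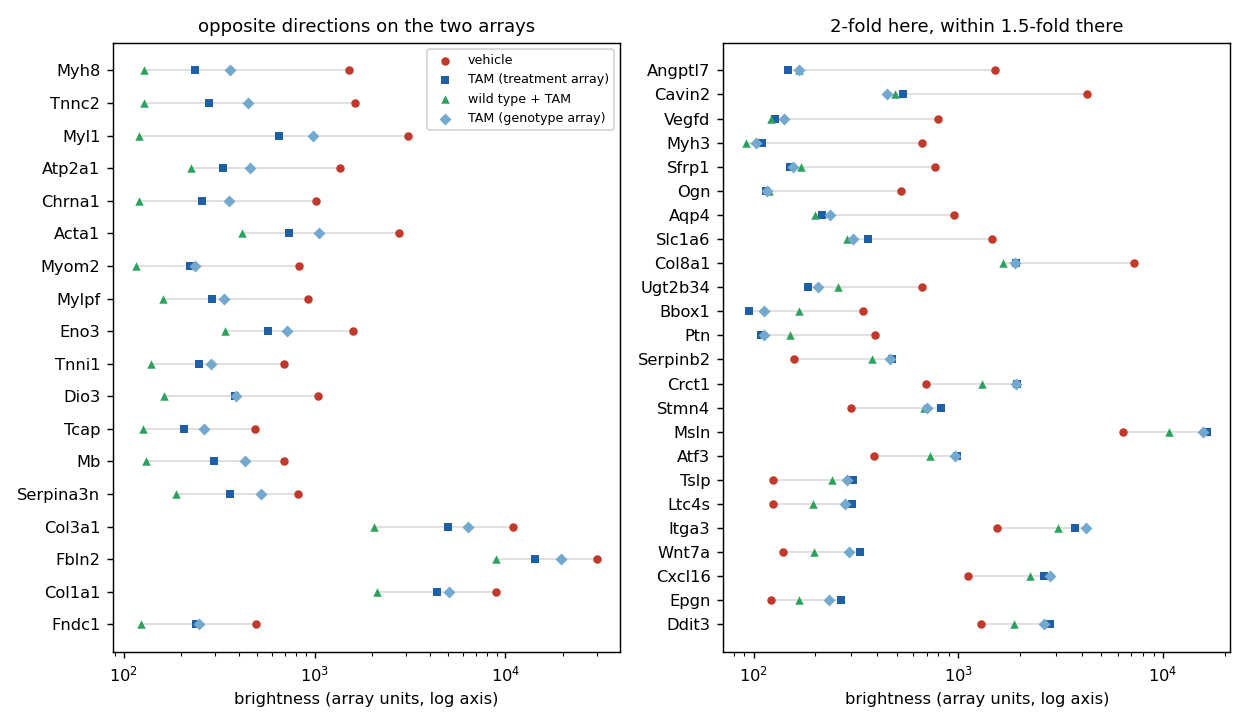
Brightness (x axis, array units on a log axis) of each gene in the 4 RNAs, with a point for each RNA, for the 18 genes past 2-fold in opposite directions (left) and the 24 genes named as 2-fold on the treatment array and within 1.5-fold on the genotype array (right). The genes were chosen by differences within each array. With the TAM cultures close to each other, this puts vehicle farthest right and wild type farthest left on the left panel. The points show the sizes, as for Angptl7 at 1516 against 147 to 167.

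The regions just before the start of these genes are shown because genes of striated muscle often carry E-boxes, the motif read by the muscle regulators MyoD and myogenin. The form searched was CAGCTG, which reads the same on both strands, in the 250 bases before each RefSeq start (build GRCm38.p6). Of 15 of the 18 genes with such a region 7 held it (46.7%), against 14.4% of 11084 kept genes and 14.7% of 27025 genes in the table. Of 11 members of the skeletal muscle list with a region 5 held it (45.5%). This list shares 6 genes with the 18, so its share is not a separate observation. The motif was chosen with the muscle genes among the 18 already known, so the contrast of shares describes that membership. A gene counted if any of its starts held the motif. A match is a description and not a binding site. Of the 7 genes 4 are printed as examples, with the motif in capitals.
Myl1 (chr1:66945057-66945306, minus strand): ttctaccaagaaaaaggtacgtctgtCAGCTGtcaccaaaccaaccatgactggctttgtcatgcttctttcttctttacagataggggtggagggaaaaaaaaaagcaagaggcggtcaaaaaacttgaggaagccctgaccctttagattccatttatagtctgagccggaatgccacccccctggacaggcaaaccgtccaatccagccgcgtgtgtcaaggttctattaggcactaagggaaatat
Acta1 (chr8:123894776-123895025, minus strand): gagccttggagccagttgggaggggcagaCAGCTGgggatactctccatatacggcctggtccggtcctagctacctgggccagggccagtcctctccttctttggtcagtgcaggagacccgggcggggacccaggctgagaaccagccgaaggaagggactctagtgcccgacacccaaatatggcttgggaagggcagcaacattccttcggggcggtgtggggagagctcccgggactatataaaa
Chrna1 (chr2:73580339-73580588, minus strand): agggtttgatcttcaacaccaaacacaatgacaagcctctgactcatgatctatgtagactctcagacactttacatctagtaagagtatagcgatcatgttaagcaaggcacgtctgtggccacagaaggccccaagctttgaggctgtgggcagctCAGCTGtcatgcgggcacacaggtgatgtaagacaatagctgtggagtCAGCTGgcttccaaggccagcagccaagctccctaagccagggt
Mylpf (chr7:127211358-127211607, plus strand): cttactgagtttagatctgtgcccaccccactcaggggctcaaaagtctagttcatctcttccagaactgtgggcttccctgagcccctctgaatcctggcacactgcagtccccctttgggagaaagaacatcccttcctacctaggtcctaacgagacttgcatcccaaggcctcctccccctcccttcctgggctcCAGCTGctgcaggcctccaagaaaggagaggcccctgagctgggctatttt
In Myl1 the motif begins 224 bases before the start, in Acta1 221, in Mylpf 51, and in Chrna1 at both 92 and 44.

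Gene lists for cell types and pathways were read against the shares of all genes past 2-fold, 1.64% higher and 0.356% lower, and against the median of 0.01 over all genes. In bulk RNA, fewer cells of a type and less RNA per cell cannot be told apart. Of 15 basal epithelial genes, 5 were at least 2-fold higher with vehicle and 1 lower, with a median log2 ratio of 0.46. The 5 were keratins and their regulator or anchor. Krt5 read 1.91 here and 2.13 on the genotype array, Krt14 1.86 and 2.07, and Krt15 1.09 and 1.04. Trp63 read 1.55 and 1.65, and Col17a1 2.03 and 2.62. On the genotype array 7 of the 15 were at least 2-fold higher in wild type and 0 lower, with a median of 0.96. Krt17, a keratin of hair follicle and wound epithelium, read 50363 with vehicle and 38579 with TAM (0.38), although on the genotype array it read 75131 and 31588. The laminin chains Lama3 and Lamb3 and the integrin chain Itgb4, which hold basal cells to their basement membrane, were close to equal, at 0.02, 0.25 and 0.06, beside 0.60 to 1.15 on the genotype array. The keratins and these anchoring genes therefore did not move as 1 group here. Itga3, the integrin partner for the same laminin, was the 1 lower gene.

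Of 22 suprabasal and squamous genes 9 were at least 2-fold higher and 0 lower, with a median of 0.71. Csta1, a stefin of cornified cells, read 11784 and 2129 (2.47), Calml3, an epithelial calmodulin-like protein, 347 and 128 (1.44), and Lor, the cornified envelope protein loricrin, 574 and 270 (1.09). Not all cornification genes went this way. Ivl, involucrin, read 2547 with vehicle and 4780 with TAM (-0.91), and Sprr1a read 5077 and 9536 (-0.91). Of 16 luminal genes 0 were 2-fold higher and 3 lower, with a median of -0.01 (0.53 after median centring). The 3 were Krt18, a keratin of simple epithelium (43509 and 87851), and the tight junction claudins Cldn3 (5938 and 14323, -1.27) and Cldn4 (1813 and 3727, -1.04). Cldn7 read -0.93 and Krt8 -0.74. The luminal gene Pbsn, probasin, was on the array and not well above background in either channel.

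Markers of non-epithelial cells were measured beside these. Of 12 fibroblast genes 3 were at least 2-fold higher and 0 lower, with a median of 0.66 here and -0.69 on the genotype array. Their summed brightness was 93199 with vehicle, 56983 with TAM, 37477 in wild type and 63865 in the other TAM culture. The 3 were Col1a1, Col1a2 and Col3a1, while Vim, the mesenchymal intermediate filament, read 0.38 and Dcn, decorin, -0.14. Of 8 smooth muscle genes 1 was past 2-fold, Cnn1, calponin (1269 and 437, 1.54), with a median of 0.73. Of 12 skeletal muscle genes 11 were at least 2-fold higher, with a median of 1.59 here and -0.99 there, and their sum was 12986, 3271, 1740 and 4381 in the same order. Myog, myogenin, the transcription factor of differentiating muscle, read 377, 180, 109 and 208. The summed brightness of both lists was thus highest in vehicle spheres and lowest in wild-type spheres, although the cells were labelled as epithelial. The part of these cells in the other differences between vehicle and TAM was not tested. Of 7 immune genes 0 passed 2-fold (median -0.12), the largest being Cd68 (318 and 545, -0.77), and the defining markers Ptprc, Adgre1 and Itgam were not well above background. Of 4 endothelial genes 0 passed 2-fold, with a median of -0.11 (0.13 after median centring), and Pecam1 and Tie1 were not well above background. The 3 sex-linked genes ran from -0.03 to 0.02 with a median of -0.02 (0.45 after median centring).

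**Figure D5:**
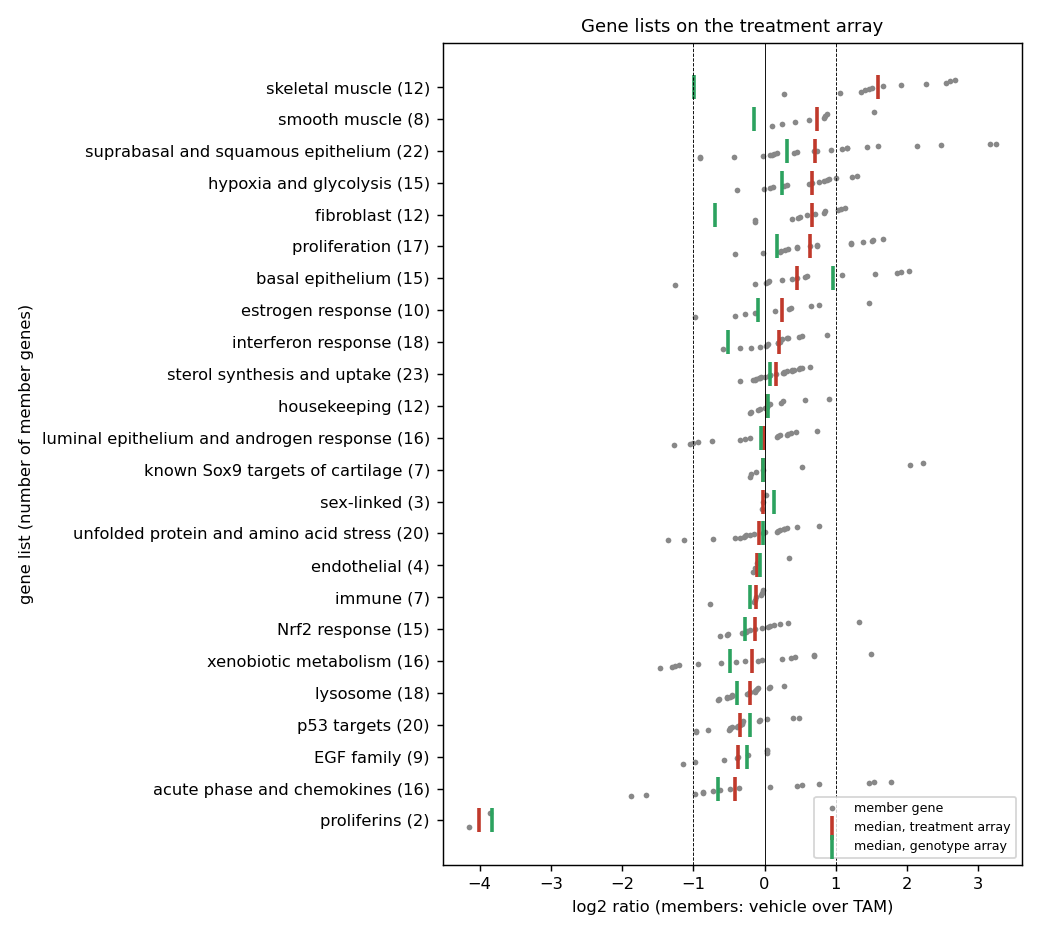
Log2 ratio of vehicle over TAM (x axis) of the member genes of 24 lists (y axis, with the number of members), as gray points, with red ticks for each list's median here and green ticks for its median on the genotype array. Skeletal muscle lies highest at 1.59 here with -0.99 there, proliferins lie lowest at -4.01 and -3.83, and housekeeping genes lie at 0.04 and 0.05.

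Some genes of the cell cycle were higher with vehicle. Of 17 proliferation genes 6 were at least 2-fold higher and 0 lower, with a median of 0.64 here and 0.17 on the genotype array. Cdc20, which triggers the end of mitosis, read 1596 and 506 (1.66). Birc5, survivin, read 1716 and 598 (1.52). Ccna2, cyclin A2, read 682 and 240 (1.51). Mki67, Plk1 and Ccnb1 were the others, from 1.21 to 1.38, and the RNA of all 6 is known to peak late in the cycle. The replication genes Mcm2, Mcm3 and Pcna read 0.23 to 0.33 and Mcm5 0.73, and Ccnd1, the cyclin of early G1, read 2348 and 3115 (-0.41). On the genotype array 4 of the 6 lay within 1.5-fold, at 0.40 to 0.50, and Mki67 and Cdc20 read 0.61 and 0.91. Genes of hypoxia and glycolysis were in part higher as well, with 3 of 15 past 2-fold and a median of 0.67 here and 0.24 there. They were Pdk1 (801 and 324, 1.30), which keeps pyruvate from the mitochondria, the carbonic anhydrase Car9 (267 and 114, 1.23) and Bnip3 (3235 and 1616, 1.00). Vegfa, the main angiogenic factor of this response, read 6246 and 6293.

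Drug-metabolizing enzymes held changes in both directions. Of 16 genes 4 were at least 2-fold lower with vehicle and 1 higher, with a median of -0.18 (0.29 after median centring). All 4 lower genes were cytochromes of the drug-induced families: Cyp2b10 (308 and 759, -1.30), Cyp2b13, Cyp3a13 (177 and 423, -1.26) and Cyp2b9 (151 and 347, -1.20). They were also lower in wild type than in floxed cells on the genotype array, where both had TAM, by -1.28 to -2.69. Aldh1a1, a retinal dehydrogenase, was the 1 higher gene (1995 and 713, 1.49). Of 10 genes of the estrogen response 1 passed 2-fold, Ltf, lactoferrin, which read 1879 with vehicle and 683 with TAM (1.46). On the genotype array, where both RNAs had TAM, Ltf read 509 in wild type and 922 in its TAM partner (-0.86). The median of the list was 0.25 here and -0.09 there. Esr1, the estrogen receptor alpha gene, read 307 and 195 (0.65).

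In each of the stress lists 0 to 2 genes passed 2-fold, beside 1.64% higher and 0.356% lower of all genes. Of 20 p53 targets 0 passed 2-fold, and 17 were below 0 with a median of -0.34 (0.20 after median centring). Cdkn1a, the cell cycle inhibitor p21, read 6116 and 11871 (-0.96) and Plk2 994 and 1936 (-0.96). Of 20 genes of the unfolded protein and amino acid response 2 were 2-fold lower, Atf3 and Ddit3, with a median of -0.08 (0.55 after median centring), and the chaperone Hsp90b1 read 14689 and 8630 (0.77). Of 15 Nrf2 targets 1 was past 2-fold, Gpx2, an epithelial glutathione peroxidase (8306 and 3336, 1.32), with a median of -0.13 (0.38 after median centring). Of 18 lysosomal genes 0 passed 2-fold (median -0.21, or 0.45 after median centring), and of 23 sterol genes 0 (median 0.16).

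Interferon-induced genes were mostly close between vehicle and TAM, and acute-phase genes were spread in both directions. Of 18 interferon-induced genes 0 passed 2-fold here, with a median of 0.20, while on the genotype array 6 were at least 2-fold lower and the median was -0.51. Isg15, a ubiquitin-like modifier, read 2157 with vehicle, 2118 with TAM, 846 in wild type and 2713 in the other TAM culture. Irf7, which amplifies the response, read 523, 662, 271 and 867. For these genes wild type was the low RNA and vehicle was close to TAM. Of 16 acute-phase genes and chemokines 3 were at least 2-fold higher and 2 lower, with a median of -0.42. The higher were Hp, haptoglobin (640 and 188, 1.77), the neutrophil chemokine Cxcl5 (1547 and 532, 1.54) and Ltf, and the lower were Saa3 and Slpi. Ccl2, the monocyte chemokine, read 3131 and 6132 (-0.97). Of 9 EGF family genes 1 was 2-fold lower, Epgn (122 and 268), with a median of -0.37, and Areg, amphiregulin, read 968 and 1891 (-0.97), while the receptors Egfr and Erbb2 read 0.04 and 0.03.

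Of 12 known Sox9 targets of cartilage 7 were well above background, with a median of -0.02 (0.04 after median centring, and 0.52 over those well above background in both channels), and 2 were at least 2-fold higher. Mia read 639 with vehicle, 155 with TAM, 657 in wild type and 186 in its TAM partner. Col11a1 read 3485, 741, 460 and 743. Mia thus followed the cells with Sox9 on both arrays, and Col11a1 had its highest value with vehicle. Col2a1, the classic Sox9 target of cartilage, was near background at 119 and 121, and Acan, aggrecan, read 93.8 and 107. Of 12 housekeeping genes 0 passed 2-fold, and their median was 0.04.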

How the data were processed

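RNA of 4 prostasphere cultures was labeled as cRNA and hybridized to 2 dual-color Agilent arrays. Per the file headers, Feature Extraction 10.5.1.1 measured the mean intensity and the median local background intensity of each spot, and it also deposited a log10 ratio of its own processed signals. The authors deposited a table of log2 ratios whose making is not described in the sources used here beyond the name limma. Both were used as alternatives only. Probe coordinates are mm9 (NCBI37), and symbols were updated through RefSeq.

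From the intensities, background was corrected by normexp with an offset of 50 (limma 3.58.1, R 4.3.3) and each array was normalized by loess with control spots (1639 of 45018) at weight 0. Outlier spots, 130 on the treatment array and 126 on the genotype array, were dropped, and repeated spots were averaged by probe. Brightness per RNA came from Aquantile normalization between arrays. A probe was kept if well above background on most spots in at least 1 channel. Tables and figures were made with the R package data.table (1.17.8), Python 3.11.15, numpy 2.4.6, pandas 2.3.3 and matplotlib 3.10.9. Columns of other series numbered 0.

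Genes named were Sox9, the 12 highest and 12 lowest with a symbol and well above background in both channels, up to 6 per channel seen in that channel alone, the 12 highest and 12 lowest that the genotype array lacked, all 2-fold in opposite directions, all with 3 or more probes past 2-fold, and up to 4 leading or defining members of each list. Further genes of the lists, and of those with every probe past 2-fold, were named after their values were seen. The members, lists and counting lines were chosen with earlier results of these data known. Changes of dim probes were understated in data simulated on this array. Of 200 spots of 23693 made 4-fold different, 138 passed 2-fold, 93 of 93 with a signal of 300 or more and 45 of 107 dimmer ones. Among unchanged spots 0 did. The noise was small and set by hand, with no spread between cultures and no dye effect of single probes. The 0 is therefore not a rate of false calls for the real data. The number of arrays limits the precision. Alternatives were the offset, the background method, the normalization, the filter, the outlier spots, the fold and the probe that stands for a gene.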

Additional observations from a re-analysis of the deposited data

Results flagged for a closer look

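The 18 genes past 2-fold in opposite directions on the 2 arrays were singled out because the effects of the arrays point opposite ways. The difference was not tested, since each array is a single measurement. The log2 ratio of the treatment array minus that of the genotype array was 5.28 for Myl1, 4.36 for Tnnc2, 4.17 for Myh8, 3.57 for Chrna1, 3.25 for Acta1, 3.07 for Atp2a1, 2.94 for Mb, 2.93 for Myom2, 2.71 for Mylpf, 2.57 for Eno3, 2.53 for Tnni1 and 2.31 for Tcap, all products of muscle. For Myl1, Myh8 and Chrna1 the wild-type signal was not well above background, so their values are not exact and have no order. Among connective tissue genes it was 2.76 for Col3a1, 2.29 for Col1a1, 2.20 for Fbln2 and 2.04 for Fndc1, and it was 2.70 for Dio3 and 2.67 for Serpina3n.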

How the results depend on the processing

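The counts depended on how background and dyes were treated, and the cause was not tested. Given in the order higher probes, lower probes, genes with every probe past 2-fold, genes that the genotype array lacked and probes in opposite directions, the values of 311, 74, 39, 141 and 18 became 499, 178, 72, 279 and 29 with an offset of 10. They became 788, 421, 122, 237 and 104 with plain subtraction, 1115, 808, 173, 250 and 175 with the scanner software's ratio, and 1371, 12, 139, 724 and 31 with median centring. Probes in opposite directions became 48 without background subtraction and 50 in the authors' table, and in both cases the other 4 counts moved by under 1.5 times. By construction, a 3-fold line left 86, 11, 22 lacking and 2 opposite, a demand of 3 probes left 2 genes with every probe past the line, and a narrower limit on the genotype array left 75 lacking. Probes in opposite directions all ran one way except 2 with subtraction and 12 with the software's ratio. Among 637 values of 64 named probes or genes under alternatives 1 changed sign, the downstream Sox9 probe, which became 0.80 where Sox9 was read as the mean over its probes. Of 24 list medians 9 changed sign when arrays were centred on their medians, which put the median gene at 0.40. Leaving out a replicate was not possible with 1 array. Each log2 ratio already compares RNAs on the same array, and no paired test was possible with 1 array of each comparison. Signal close to background limits the dim probes.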

Other observations

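Of the genes past 2-fold, 11 higher and 15 lower carry names without a RefSeq symbol. The 15 lower ones had log2 ratios of -1.99 to -1.01, and all 15 were below 0 on the genotype array too, from -1.90 to -0.29. All 15 were brighter in the TAM culture of the treatment array than in that of the genotype array, with a median log2 difference of 0.68. The file describes 2 of them as sequences of ETn transposons, which are retroviral-like elements of the mouse genome, and these read -1.43 and -1.42 here and -1.32 and -1.25 there.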
